A study of Mus musculus with 6 samples.

Results

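The transcripts described here belong to 9 genes that mark naive T cells and their traffic through lymphoid organs: Tcf7, Lef1, Klf2, Satb1, Ccr7, S1pr1, Il7r, Dapl1 and Igfbp4. They were taken by symbol from the deposited gene tables, which held 23091 usable symbols, and each of the 9 had 1 usable entry in all 6 tables. RNA was sequenced from CD4 T cells of C57/Bl6j mice aged 7 weeks, either NLRP3KO, which lack the sensor protein of the NLRP3 inflammasome, or wild type (WT). For each genotype there was 1 library of naive cells from spleen and nodes, 1 of cells kept for 3 days under T helper type 2 (Th2) conditions and 1 of cells kept for 6 days. The 4 Th2 cultures, in both genotypes alike, contained 10 ng/ml of IL-4 and a blocking antibody to interferon gamma, and the cells were stimulated by plate-bound anti-CD3 and anti-CD28. RNA of the 4 Th2 libraries was depleted of ribosomal RNA, while the labels describe the RNA of the naive libraries as purified mRNA. The labels give neither the number of mice behind a library nor the allele of the knockout. With 1 library per group, every difference below is one between libraries and none has a replicate check.

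A naive T cell stays out of the cell cycle and circulates between blood and lymph nodes until it meets antigen. In mouse T cells the transcription factor FOXO1 keeps this state by driving Klf2, Il7r and Ccr7. KLF2 in turn drives S1pr1, so that exit from the node and quiescence share a regulator. TCF1 (the product of Tcf7) and LEF1 are related proteins that bind DNA beside beta-catenin and establish T cell identity. After activation, signals through the T cell receptor, PI3 kinase and mTOR are known to silence many of these genes.

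Promoter sequences are shown for 5 of the genes because FOXO1, a forkhead protein, and KLF2 are the best described regulators of the group. The windows run from 250 bases before to 50 bases after a RefSeq start (GRCm38.p6, a newer build than the mm9 build of the expression tables), 5′ to 3′ on the strand of the gene. Capitals mark every match, on either strand, to a forkhead motif (TGTTTAC), a TCF/LEF motif (CTTTGAT or CTTTGAA), an ETS motif (CCGGAA) or a KLF motif (CCNCNCCC). Runs of capitals can hold several overlapping KLF matches. The Tcf7 window lies at chr11:52282546-52282845, minus strand, and is the second of 2 RefSeq starts. The Klf2 window lies at chr8:72318812-72319111, plus strand. The Il7r window lies at chr15:9529827-9530126, minus strand. The Dapl1 window lies at chr2:59484403-59484702, plus strand. The Igfbp4 window lies at chr11:99040994-99041293, plus strand.
Tcf7: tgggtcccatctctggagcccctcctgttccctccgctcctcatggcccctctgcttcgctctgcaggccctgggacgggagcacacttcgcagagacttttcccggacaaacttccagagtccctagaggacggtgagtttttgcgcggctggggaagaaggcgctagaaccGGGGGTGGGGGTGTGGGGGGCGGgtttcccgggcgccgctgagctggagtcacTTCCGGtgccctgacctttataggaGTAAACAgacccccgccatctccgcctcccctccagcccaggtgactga
Klf2: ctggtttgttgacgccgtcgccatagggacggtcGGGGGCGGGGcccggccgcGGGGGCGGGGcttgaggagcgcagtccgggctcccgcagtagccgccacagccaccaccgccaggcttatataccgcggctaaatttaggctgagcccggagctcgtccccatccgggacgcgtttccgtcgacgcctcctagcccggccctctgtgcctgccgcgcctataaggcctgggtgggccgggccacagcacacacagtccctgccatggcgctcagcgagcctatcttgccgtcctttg
Il7r: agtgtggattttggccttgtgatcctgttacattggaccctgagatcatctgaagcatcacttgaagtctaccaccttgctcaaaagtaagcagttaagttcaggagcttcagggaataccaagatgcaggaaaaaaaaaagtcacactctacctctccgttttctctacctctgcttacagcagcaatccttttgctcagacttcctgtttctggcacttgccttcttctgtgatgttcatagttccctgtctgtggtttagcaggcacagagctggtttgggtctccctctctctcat
Dapl1: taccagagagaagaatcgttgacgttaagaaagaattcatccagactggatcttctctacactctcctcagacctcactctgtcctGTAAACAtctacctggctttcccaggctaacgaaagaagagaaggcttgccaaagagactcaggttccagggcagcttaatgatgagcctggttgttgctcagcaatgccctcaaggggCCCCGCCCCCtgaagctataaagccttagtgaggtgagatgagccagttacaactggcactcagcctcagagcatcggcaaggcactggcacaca
Igfbp4: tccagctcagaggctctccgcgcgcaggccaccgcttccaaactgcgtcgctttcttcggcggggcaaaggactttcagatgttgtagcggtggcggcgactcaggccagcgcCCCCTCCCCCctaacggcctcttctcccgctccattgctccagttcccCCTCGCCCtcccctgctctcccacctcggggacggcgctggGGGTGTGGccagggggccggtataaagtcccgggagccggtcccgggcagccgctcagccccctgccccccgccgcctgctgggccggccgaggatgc

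In all, 15 windows of 7 of the genes matched the RefSeq promoter table. The forkhead motif was in the printed windows of Tcf7 and Dapl1 (as GTAAACA, its reverse complement) and in none of the other 13, against 3.65% of all 32851 promoter windows. The ETS motif was in the same Tcf7 window alone, against 14.9% of all windows. The TCF/LEF motif was in none of the 15, against 8.65% of all windows. The KLF motif was in 13 of the 15 windows, against 49.5% of all windows. Counted by gene, 6 of the 7 had it in at least 1 window. Some windows of Lef1 and of Satb1 overlap, so the same match can count in more than 1 window. The Klf2 and Igfbp4 windows had 69.3% and 71.3% GC, the Il7r and Dapl1 windows 45.7% and 51.0%, and the median of all windows was 52.7%. The Il7r window held none of the motifs. These are matches of letters and say nothing of binding.

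Depth sets what can be read from each library. Expression is given as FPKM, the fragments of a gene scaled to its transcript length and to all mapped fragments of the library, with the lower and upper bound that the authors deposited beside each value. The totals used for normalization, read back from the bounds, were about 3112334 fragments in naive NLRP3KO, 4571244 in naive WT, 475361 and 604216 in NLRP3KO and WT at day 3, and 129744 and 562337 in NLRP3KO and WT at day 6. For 7 of the genes the bounds also gave the number of fragments behind each value. Together these 7 had 42 and 41 fragments in NLRP3KO and WT at day 3, and 17 and 30 in NLRP3KO and WT at day 6, against 7973 and 7215 in naive NLRP3KO and naive WT. All 9 T cell markers examined, Cd3e and Cd4 among them, were above 0 in both naive libraries. Nlrp3 was listed at 0 in all 3 NLRP3KO libraries and in both WT Th2 libraries, while naive WT had an FPKM of 0.0569, so the knockout could not be checked at this depth.

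**Figure D1:**
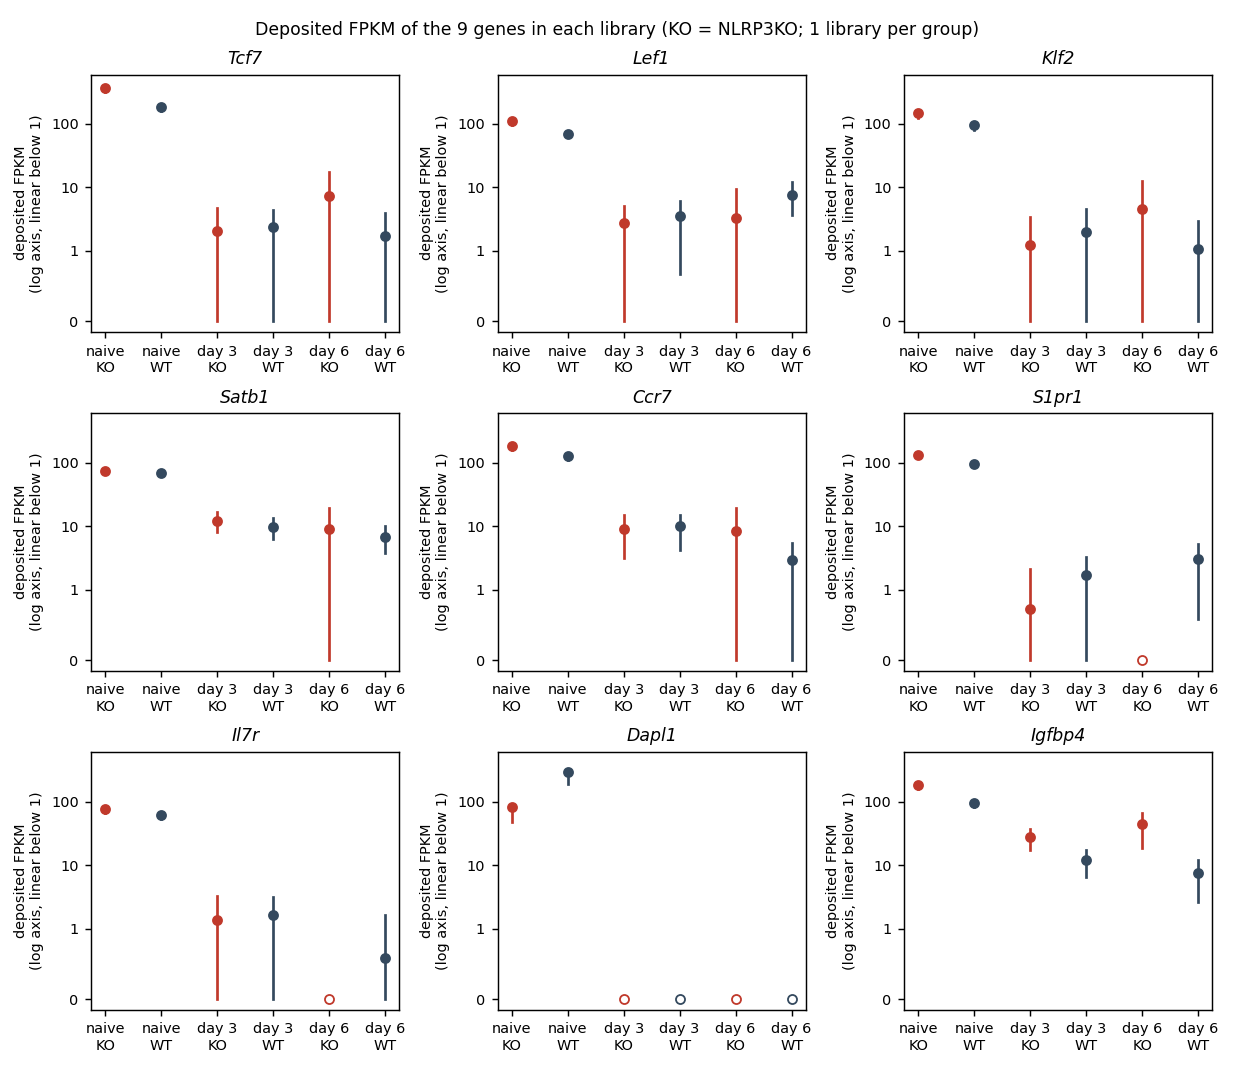
Deposited FPKM (points, log axis that is linear below 1) with deposited lower and upper bounds (lines) for the 9 genes in the 6 libraries, NLRP3KO in red and WT in dark grey; open circles are values listed at 0. All 9 genes sit above 60 in both naive libraries, and Igfbp4 has the highest value in 3 of the 4 Th2 libraries.

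In naive cells all 9 genes were abundant. Their FPKM lay between 74.5 (Satb1) and 363 (Tcf7) in naive NLRP3KO and between 60.6 (Il7r) and 293 (Dapl1) in naive WT. All 9 were thus in the top 4% of genes above 0 in each library, the lowest being Satb1 at rank 434 in naive NLRP3KO and Il7r at rank 473 in naive WT. In the Th2 libraries none of the values exceeded 44.2. The summed FPKM of the 9 genes was 1353 in naive NLRP3KO and 1088 in naive WT, then 56.9 and 43.1 in NLRP3KO and WT at day 3, and 77.0 and 31.2 in NLRP3KO and WT at day 6. After scaling the sums were 331 in naive NLRP3KO and 357 in naive WT, then 101 and 86.9 in NLRP3KO and WT at day 3, and 125 and 56.9 in NLRP3KO and WT at day 6, so the order of the naive sums depended on the scale. Igfbp4 alone made up the larger part of the day 6 NLRP3KO sum.

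Among the transcription factors, Tcf7 (mm9 chr11:52066106-52095752) encodes TCF1, which is needed for T cell development and for the self-renewing state of T cells. Its FPKM was 363 in naive NLRP3KO (bounds 322 to 358, a value outside its own bounds) and 182 in naive WT (161 to 182). At day 3 it was 2.02 in NLRP3KO and 2.39 in WT, and at day 6 it was 7.42 in NLRP3KO and 1.71 in WT. The naive libraries were high and all Th2 libraries were low, with no overlap of the bounds between them. The Th2 values rest on 2 fragments in NLRP3KO and 3 in WT at day 3, and on 2 in each genotype at day 6. The higher FPKM of NLRP3KO at day 6 thus came from the same number of fragments in a shallower library, and the ratio of NLRP3KO to WT was 3.85 after scaling, with a counting interval of 0.279 to 53.1.

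Lef1 (chr3:130813389-130926249), the paralog that acts beside TCF1, had an FPKM of 109 in naive NLRP3KO (95.2 to 116) and 70.1 in naive WT (61.2 to 75.4). It was 2.73 in NLRP3KO and 3.58 in WT at day 3, from 3 and 5 fragments. At day 6 it was 3.34 in NLRP3KO, from 1 fragment, and 7.68 in WT (3.62 to 12.3), from 10 fragments. WT at day 6 was the highest of the 4 Th2 libraries, but its bounds overlapped those of the other 3. Lef1 was also the leading gene of the 9 in WT at day 6, ahead of Igfbp4 by less than the width of their bounds.

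Klf2 (chr8:74842961-74845553), a zinc finger factor that restrains proliferation and drives S1pr1, had an FPKM of 147 in naive NLRP3KO (125 to 151) and 94.7 in naive WT (80.3 to 98.9). It was 1.26 in NLRP3KO and 1.98 in WT at day 3, and 4.62 in NLRP3KO and 1.06 in WT at day 6. No Th2 library had more than 2 Klf2 fragments, and each day 6 library had 1. Any order among the Th2 libraries was therefore not detectable at this depth.

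Satb1 (chr17:51875512-51972615) encodes a chromatin organizer of thymocytes and T cells. At day 3 its bounds lay above those of the other factors in both genotypes. At day 6 they overlapped those of Lef1, which had the higher FPKM in WT. The FPKM of Satb1 was 74.5 in naive NLRP3KO (69.7 to 79.4) and 69.0 in naive WT (65.0 to 73.1). At day 3 it was 12.2 in NLRP3KO (8.02 to 16.8) and 9.83 in WT (6.28 to 13.4). At day 6 it was 8.96 in NLRP3KO (0 to 19.2) and 6.79 in WT (3.82 to 10.0). The bounds of the 4 Th2 libraries all overlapped one another. Fragment numbers could not be read from its bounds.

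The homing receptors followed the same order of naive over Th2. CCR7 binds the chemokines CCL19 and CCL21 and brings T cells into lymph nodes. Ccr7 (chr11:99005513-99016391) had an FPKM of 184 in naive NLRP3KO (159 to 188) and 127 in naive WT (110 to 130). It was 9.20 in NLRP3KO and 9.95 in WT at day 3, from 8 and 11 fragments, and 8.44 in NLRP3KO and 2.91 in WT at day 6, from 2 and 3 fragments. Within WT, the day 6 library was lower than the day 3 library, at a scaled ratio of 0.265 with a counting interval of 0.0476 to 1.01, which includes 1.

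S1PR1, the receptor for sphingosine 1-phosphate, lets T cells leave the node. S1pr1 (chr3:115413351-115417973) had an FPKM of 135 in naive NLRP3KO (121 to 142) and 95.8 in naive WT (lower bound 86.1). At day 3 it was 0.730 in NLRP3KO and 1.72 in WT, from 1 and 3 fragments. At day 6 NLRP3KO was listed at 0, and WT had 3.08 (0.587 to 5.28), from 5 fragments. In the NLRP3KO library of day 6, 3 fragments would have corresponded to an FPKM of 7.63, above the WT value, so a level like that of WT was not detectable there.

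IL-7 receptor alpha pairs with the common gamma chain and carries the survival signal of resting T cells. Il7r (chr15:9435914-9459631) had an FPKM of 75.3 in naive NLRP3KO (66.9 to 82.2) and 60.6 in naive WT (54.0 to 66.0). It was 1.37 in NLRP3KO and 1.62 in WT at day 3, from 2 and 3 fragments. At day 6 NLRP3KO was listed at 0, and WT had 0.579, from 1 fragment. Il2rg, the common gamma chain, had an FPKM of 323 in naive NLRP3KO and 266 in naive WT, and between 7.25 and 15.8 in the Th2 libraries.

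Dapl1 and Igfbp4 are less studied in T cells. Dapl1 (chr2:59322710-59343078), named for its likeness to death-associated protein, was the only one of the 9 whose deposited FPKM was lower in naive NLRP3KO than in naive WT. Its FPKM was 82.4 in naive NLRP3KO (47.6 to 78.4) and 293 in naive WT (189 to 235), both outside their own bounds. All 4 Th2 libraries gave no value above 0. Because its longest annotated transcript has only 663 bases, 3 fragments would have corresponded to an FPKM of 9.52 in NLRP3KO and 7.49 in WT at day 3, and of 34.9 in NLRP3KO and 8.05 in WT at day 6. With the FPKM of 3 fragments set against the lower naive bound, after scaling, Dapl1 was at least 4.11-fold lower in WT at day 3 and at least 4.22-fold lower in WT at day 6 than in naive WT. These WT folds hold for the scaling used here and would be smaller if ribosomal protein genes set the scale. In NLRP3KO the FPKM of 3 fragments lay above the lower naive bound on both days, so no fold is given.

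Igfbp4 (chr11:98902574-98913957) encodes a secreted protein that binds insulin-like growth factors. Its FPKM was 183 in naive NLRP3KO (159 to 186) and 96.1 in naive WT (83.0 to 101). It was 27.4 in NLRP3KO (17.3 to 37.7) and 12.1 in WT (6.41 to 17.6) at day 3, from 25 and 14 fragments. At day 6 it was 44.2 in NLRP3KO (18.7 to 67.2) and 7.39 in WT (2.58 to 12.1), from 11 and 8 fragments. NLRP3KO was higher than WT at all 3 stages, with bounds that did not overlap in naive cells and at day 6 and that overlapped at day 3. On mm9, Igfbp4 lies 91555 bases from Ccr7 with 1 annotated gene between them, Tns4, which had an FPKM of 0.140 in naive NLRP3KO and 0.0478 in naive WT, with 0 listed in all Th2 libraries.

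**Figure D2:**
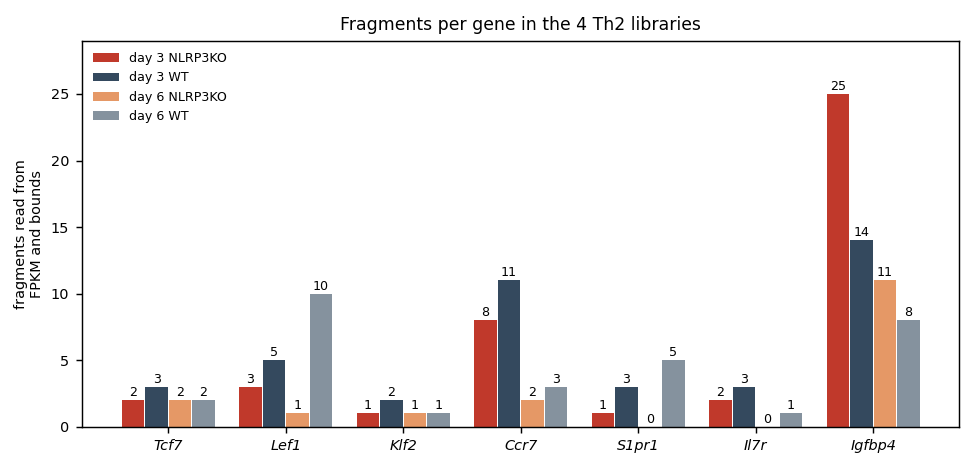
Fragments behind the FPKM of the 7 genes for which they could be read from the deposited bounds (bars, with the number above each), in the 4 Th2 libraries; Satb1 and Dapl1 are not shown. Apart from Igfbp4, no gene has more than 11 fragments in a Th2 library, and Tcf7, Klf2 and Il7r have at most 3.

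Since FPKM is per length, the genes can be ordered within a library, except that the places of Dapl1 and of Tcf7 in naive NLRP3KO rest on values outside their own bounds. In naive NLRP3KO it ran Tcf7, Ccr7, Igfbp4, Klf2, S1pr1, Lef1, Dapl1, Il7r and Satb1. There the bounds overlapped between Ccr7 and Igfbp4, between Klf2 and S1pr1, and between the neighbours Dapl1, Il7r and Satb1. In naive WT the order was Dapl1, Tcf7, Ccr7, Igfbp4, S1pr1, Klf2, Lef1, Satb1 and Il7r, and the bounds of Igfbp4, S1pr1 and Klf2 overlapped, as did those of Lef1, Satb1 and Il7r between neighbours. At day 3 Igfbp4, Satb1 and Ccr7 took the top 3 places in both genotypes, and in NLRP3KO the bounds of Igfbp4 lay above those of Satb1. At day 6 no gene had bounds apart from those of its neighbour in the order in either genotype.

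The comparison of NLRP3KO with WT asks whether the loss of NLRP3 goes with another level of these genes. Differences are given as log2 of scaled FPKM plus 1, NLRP3KO minus WT. The scaling put the 6 libraries on the scale of 1059 genes present in all of them, and moved the naive difference by -0.42, since the deposited FPKM of naive NLRP3KO were higher for most genes. In naive cells, 1 of the 9 genes was at least 2-fold apart, Dapl1, which was lower in NLRP3KO at -2.20. When ribosomal protein genes set the scale the count was 5, with Dapl1 still lower at -1.34 and Tcf7 (1.40), Igfbp4 (1.31), Klf2 (1.02) and Lef1 (1.01) higher in NLRP3KO. Of 9985 genes kept, those that reached an FPKM of 1 in at least 1 of the 2 libraries, 2.53% were 2-fold apart in either direction and 2.32% were 2-fold lower in NLRP3KO. The next largest differences were Tcf7 at 0.56 and Igfbp4 at 0.49, both higher in NLRP3KO, and Satb1 at -0.30, whose sign turned under other scalings, up to 0.51. For these 3 and Dapl1 the scaled bounds did not overlap between the genotypes. Lef1 (0.21), Klf2 (0.21), Ccr7 (0.12), S1pr1 (0.07) and Il7r (-0.10) had overlapping bounds. The median of the 9 genes was 0.12 and that of all genes kept was 0.01.

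Both naive libraries also held RNA of other cells, in unequal amounts. The 6 B cell markers summed to an FPKM of 39.0 in naive NLRP3KO and 80.5 in naive WT, and the 5 erythroid markers to 398 and 833 in naive NLRP3KO and naive WT, with all of both lists above 0 in each library. The erythroid sums rest on globin genes that went both ways: Hba-a2 had 39.8 in naive NLRP3KO and 507 in naive WT, while its near-identical copy Hba-a1 had 238 in naive NLRP3KO and 84.3 in naive WT. Counting could split reads between such copies, so their single values are uncertain. The 5 markers of regulatory T cells summed to 67.4 in naive NLRP3KO and 33.8 in naive WT, and Foxp3 itself had 25.0 and 9.30 in naive NLRP3KO and naive WT. The 2 CD8 markers summed to 15.7 in naive NLRP3KO and 16.1 in naive WT, the 9 myeloid markers found to 66.6 and 67.1, the 4 NK cell markers to 25.4 and 36.4, the 4 stromal markers to 0.0711 and 0, and the 6 markers of memory or effector cells to 72.4 and 71.9, each in the same order. All these sums are of deposited FPKM. After scaling, naive NLRP3KO and naive WT had 16.5 and 11.1 for regulatory T cells and 17.7 and 23.6 for memory or effector cells. In the same order, the scaled sums were 9.56 and 26.4 for B cells, 97.4 and 273 for erythroid cells and 3.83 and 5.27 for CD8 cells. They were 16.3 and 22.0 for myeloid cells and 6.23 and 11.9 for NK cells. In such bulk RNA, fewer cells of a type and less RNA per cell cannot be told apart. The part of these cells in the naive differences of Dapl1, Tcf7 and Igfbp4 was not tested.

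The Dapl1 difference stood in a setting where short transcripts as a class were lower in naive NLRP3KO. Among genes that reached an FPKM of 5 in both naive libraries, the median difference was -0.64 for the 131 genes whose longest transcript had 500 to 800 bases, the class of Dapl1. It was -0.12 for the 818 genes of 1200 to 2000 bases, which include Klf2 and Ccr7, and 0.06 for the 1699 genes of 3000 to 5000 bases, which include Lef1, S1pr1, Il7r and Igfbp4. In the class of Dapl1, 26.0% of genes were at least 2-fold lower in NLRP3KO, and 5 of the 131, Dapl1 among them, were at least 4-fold lower. The part of transcript length in the Dapl1 difference was not tested.

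**Figure D3:**
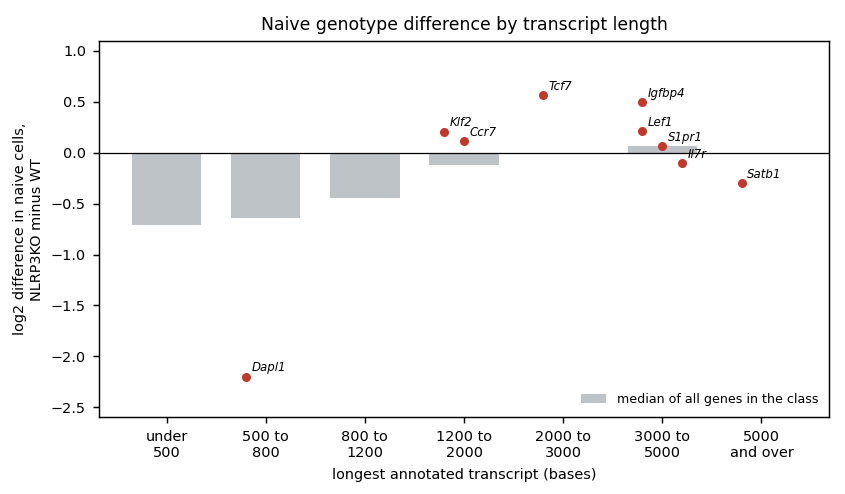
Log2 difference of scaled FPKM plus 1 in naive cells, NLRP3KO minus WT, by the length of the longest annotated transcript: grey bars are medians of all genes that reached an FPKM of 5 in both libraries, and red points are the 9 genes. The medians are lowest below 800 bases, and Dapl1, at -2.20, lies below the median of its class, -0.64.

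At day 3, 8 of the 9 genes were kept and 0 were at least 2-fold apart, against 52.6% of 5749 genes kept. Of the 5749 genes, 34.4% were listed at 0 in 1 of the 2 libraries, as was none of the 8, so the 2 shares are not alike. The largest differences were Igfbp4 at 0.97, higher in NLRP3KO, and S1pr1 at -0.96, and the other 6 lay between -0.63 and 0.13. Among all genes kept, 25.4% were 2-fold higher and 27.2% 2-fold lower in NLRP3KO. From fragments, the Igfbp4 ratio of NLRP3KO to WT was 2.00 with an exact 95% counting interval of 1.00163 to 4.17. That interval barely leaves out 1 and would include it if ribosomal protein genes set the scale. The S1pr1 ratio, from 1 and 3 fragments in NLRP3KO and WT, was 0.374 with an interval of 0.00712 to 4.66. The bounds of NLRP3KO and WT overlapped for all 8 genes. Their median was -0.32, against 0.11 over all genes kept.

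At day 6, 7 genes were kept and 6 of them were at least 2-fold apart, against 74.6% of 5336 genes kept. Of the 5336 genes, 59.2% were listed at 0 in 1 of the 2 libraries. Of the 6, 4 were higher in NLRP3KO (Igfbp4 at 2.33, Tcf7 at 1.66, Klf2 at 1.53 and Ccr7 at 1.22), against 20.9% of all genes kept, and 2 were lower (Lef1 at -1.23, and S1pr1, listed at 0 in NLRP3KO), against 53.8% of all genes kept. With S1pr1 at the FPKM of 3 fragments, 1 was lower, Lef1. Satb1 differed by 0.21. The median of the 7 genes was 1.22, against -1.52 over all genes kept and 0.33 over those above 0 in both libraries. For Igfbp4 the fragment ratio of NLRP3KO to WT was 5.29 with a counting interval of 1.94 to 15.2. For each of the other 6 genes with recovered fragments the interval included 1. The 3 higher genes other than Igfbp4 rest on 1 or 2 fragments each in NLRP3KO, in a library where 1 Klf2 fragment gave an FPKM of 4.62. Of 9 T cell markers, 5 were at least 2-fold lower and 0 were 2-fold higher in NLRP3KO at day 6, with a median of -1.47. Only 6 of the 9 markers were above 0 in that NLRP3KO library, against 9 in WT. Those listed at 0 count as lower and had an FPKM between 7.36 and 8.30 in WT. The FPKM of 3 fragments was not worked out for the markers, and for S1pr1 in that library it was 7.63. Levels like those of WT may therefore not have been detectable for the markers listed at 0.

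After the scaling used here, Igfbp4 was the only one of the 9 genes that was higher in NLRP3KO at all 3 stages. Of 3800 genes kept at all 3 stages, 402 were higher in NLRP3KO at each, or 10.6%. Under 6 other settings of the scaling and the pseudocount the Igfbp4 difference stayed above 0. It ran from 0.51 to 1.31 in naive cells, from 0.91 to 1.12 at day 3 and from 2.36 to 3.34 at day 6. As deposited, Satb1 was also higher in NLRP3KO at all 3 stages, by ratios of 1.08 in naive cells, 1.24 at day 3 and 1.32 at day 6. The same held for Satb1 when ribosomal protein genes set the scale.

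**Figure D4:**
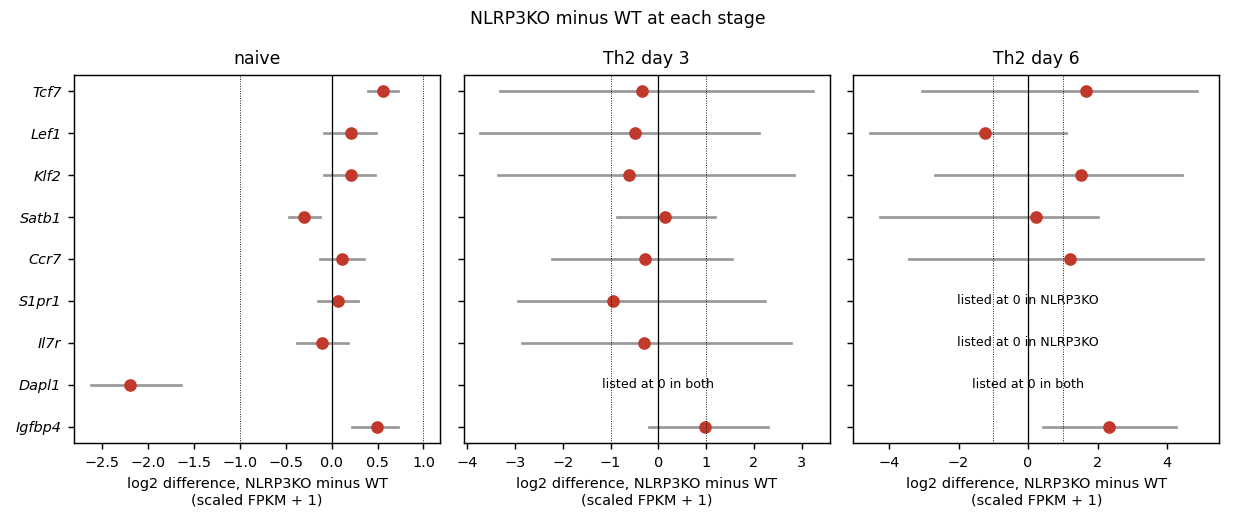
Log2 difference of scaled FPKM plus 1, NLRP3KO minus WT, for the 9 genes in naive cells, at day 3 and at day 6 (points); lines run between the most extreme differences that the deposited bounds allow, and dotted lines mark 2-fold. Genes listed at 0 in NLRP3KO or in both libraries carry no point, and Igfbp4 lies right of 0 in all 3 panels, at 0.49, 0.97 and 2.33.

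The comparison of Th2 cultures with naive cells asks how the genes stand after differentiation. It was confounded with the library preparation, since ribosomal depletion goes with the Th2 libraries and mRNA purification with the naive ones, so culture and preparation cannot be told apart. Rn45s, the ribosomal RNA precursor, had FPKM between 53218 and 67266 in the Th2 libraries and of 7819 in naive NLRP3KO and 10783 in naive WT. Scaling moved these comparisons by 2.48 to 2.86 on the log2 scale. Relative to it, and with genes listed at 0 counted as lower, 7 of the 9 genes were at least 2-fold lower than in naive cells in each of the 4 comparisons. With those genes at the FPKM of 3 fragments the count was 6 in NLRP3KO and 7 in WT at day 3, and 5 in NLRP3KO and 7 in WT at day 6. Other scalings gave 4 in WT at day 3 (ribosomal protein genes) and 4 in NLRP3KO at day 6 (upper quartile), and all 9 genes were 2-fold lower in each comparison without scaling. The shares of all genes kept that were 2-fold lower were 32.1% in NLRP3KO and 31.3% in WT at day 3, and 52.8% in NLRP3KO and 30% in WT at day 6. In either direction, 42.9% in NLRP3KO and 41.3% in WT at day 3, and 62.7% in NLRP3KO and 40.3% in WT at day 6, were 2-fold apart. The medians over all genes kept were -0.53 in NLRP3KO and -0.52 in WT at day 3, and -1.09 in NLRP3KO and -0.51 in WT at day 6. In these shares and medians, genes listed at 0 were not set to the FPKM of 3 fragments. Genes listed at 0 in 1 of the 2 libraries made up 41.6% in NLRP3KO and 36.4% in WT at day 3. At day 6 they made up 73.2% in NLRP3KO and 34.5% in WT. Over genes above 0 in both libraries the medians were 0.02 in NLRP3KO and -0.001 in WT at day 3. At day 6 those medians were 0.49 in NLRP3KO and -0.01 in WT.

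With genes listed at 0 set to the FPKM of 3 fragments, 4 genes were at least 2-fold lower in all 4 comparisons: Tcf7, Klf2, Ccr7 and S1pr1. Il7r was so in 3 of them, and Dapl1 in both WT comparisons. Only genes listed at 0 were raised in this way, and values that rest on 1 or 2 fragments were left as deposited. For NLRP3KO at day 6 the deposited bounds allow differences as small as -0.54 for Klf2 (1 fragment) and -0.29 for Ccr7 (2 fragments). For Ccr7 at day 3 they allow -0.54 in NLRP3KO and -0.24 in WT. Klf2 and Ccr7 are thus not shown to be 2-fold lower in those comparisons. Tcf7 had differences of -4.29 in NLRP3KO and -3.38 in WT at day 3, and of -2.78 in NLRP3KO and -3.88 in WT at day 6. Klf2 had -3.51 in NLRP3KO and -2.68 in WT at day 3, and -2.12 in NLRP3KO and -3.45 in WT at day 6. Ccr7 was closest to the 2-fold line, with -1.41 in NLRP3KO and -1.01 in WT at day 3, and -1.65 in NLRP3KO and -2.75 in WT at day 6. Its WT difference at day 3 turned to 0.47 when ribosomal protein genes set the scale. Il7r had -2.50 in NLRP3KO and -2.29 in WT at day 3, and -3.34 in WT at day 6. S1pr1 had -3.89 in NLRP3KO and -2.86 in WT at day 3, and -2.29 in WT at day 6. For NLRP3KO at day 6 the FPKM of 3 fragments was also set against the lower naive bound. By the scaling used here, S1pr1 was then at least 2.39-fold lower and Il7r at least 1.40-fold lower. With upper quartile multipliers (0.198 in naive NLRP3KO and 3.19 in NLRP3KO at day 6), neither gene would be shown to be lower.

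Lef1, Satb1 and Igfbp4 differed from these in 1 or more comparisons. Lef1 was -2.24 in NLRP3KO and -1.55 in WT at day 3, and -2.11 in NLRP3KO at day 6, but -0.68 in WT at day 6. Satb1 was 0.24 in NLRP3KO and -0.18 in WT at day 3, and -0.31 in NLRP3KO and -0.82 in WT at day 6. Igfbp4 was 0.12 in NLRP3KO and -0.36 in WT at day 3, and 0.67 in NLRP3KO and -1.17 in WT at day 6. Relative to the other transcripts, the point values of Satb1 and Igfbp4 were therefore within 2-fold of their naive level in all comparisons but that of Igfbp4 in WT at day 6. The deposited bounds allow larger differences. For Satb1 at day 6 they reach -4.35 in NLRP3KO and -1.65 in WT. For Igfbp4 they reach -1.30 in WT at day 3 and 1.46 in NLRP3KO at day 6. As log2 ratios of deposited FPKM, without scaling, Igfbp4 lay between -3.70 and -2.05 and Satb1 between -3.35 and -2.61. The direction of both therefore depended on the scale, and so did that of Lef1 in WT at day 6, which reached 0.46 under another scaling.

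**Figure D5:**
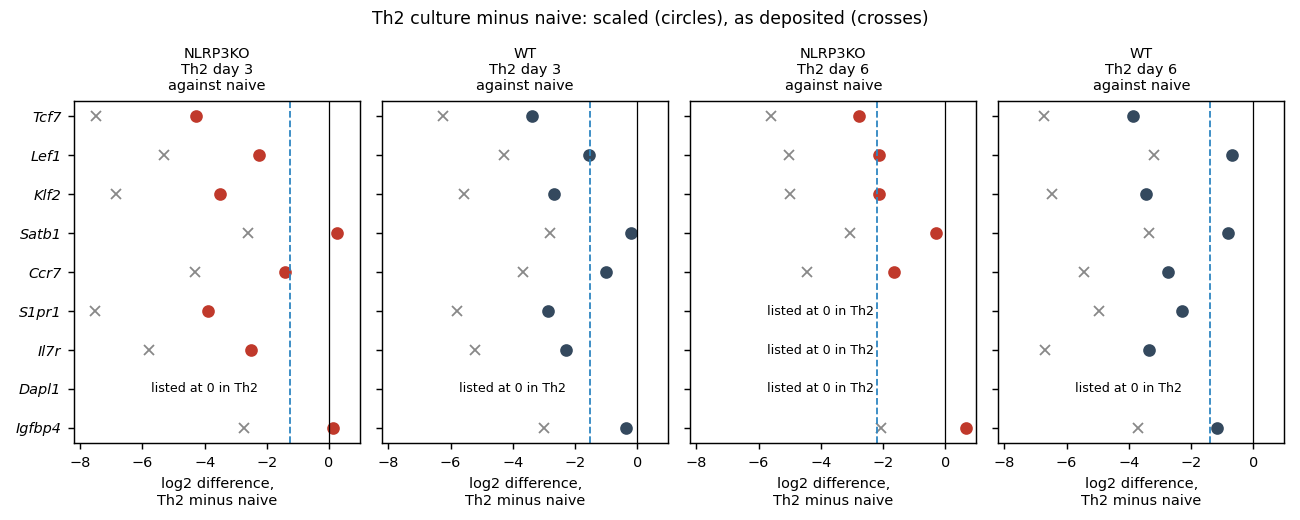
Log2 difference of Th2 minus naive for the 9 genes in each genotype and day, after scaling with 1 added to FPKM (circles) and as the ratio of deposited FPKM (crosses); the dashed line is the scaled median of the 510 genes that reached an FPKM of 50 in both naive libraries. Genes listed at 0 in the Th2 library carry no point. Tcf7, Klf2 and Il7r lie left of the dashed line at day 3, while Satb1 and Igfbp4 lie near 0 after scaling.

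The 9 genes were abundant in naive cells, and other such genes were also often lower in the Th2 libraries. Of the 510 genes that reached an FPKM of 50 in both naive libraries, 55.5% in NLRP3KO and 65.7% in WT at day 3, and 73.1% in NLRP3KO and 62.5% in WT at day 6, were at least 2-fold lower. Their median differences were -1.26 in NLRP3KO and -1.53 in WT at day 3, and -2.19 in NLRP3KO and -1.40 in WT at day 6. The medians of the 9 genes were -2.50 in NLRP3KO and -2.29 in WT at day 3, and -2.12 in NLRP3KO and -2.75 in WT at day 6. With genes listed at 0 set to the FPKM of 3 fragments they were -2.24 in NLRP3KO and -2.29 in WT at day 3, and -1.34 in NLRP3KO and -2.63 in WT at day 6. This was done for the 9 genes only. Genes listed at 0 among the 510 genes and the T cell markers were left at 0, so those medians are not on the same footing. T cell markers were lower as well: of 9, 7 in NLRP3KO and 8 in WT at day 3, and 9 in NLRP3KO and 6 in WT at day 6, were at least 2-fold lower, with medians of -2.24 in NLRP3KO and -2.19 in WT at day 3, and -2.95 in NLRP3KO and -1.84 in WT at day 6.

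Between day 6 and day 3 the genes had too few fragments for an order to be read. In WT, 2 of 8 genes kept were at least 2-fold apart, Ccr7 at -1.74 and Il7r at -1.05, both lower at day 6, against 44.3% of 5592 genes kept, where 24.1% were 2-fold higher and 20.2% 2-fold lower at day 6. In NLRP3KO, 3 of 7 genes kept were at least 2-fold apart, Tcf7 and Klf2, both higher at day 6 (Klf2 at 1.39), and Il7r, listed at 0 at day 6 and not lower once set to the FPKM of 3 fragments, against 72.7% of 5207 genes kept, where 21% were 2-fold higher and 51.8% 2-fold lower at day 6. Every counting interval between the days included 1. Igfbp4 was 0.55 in NLRP3KO and -0.81 in WT, with ratios of day 6 to day 3 of 1.47 (0.653 to 3.10) in NLRP3KO and 0.556 (0.202 to 1.42) in WT.

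A wider list of 32 other genes of the naive and quiescent state was also mostly lower in the Th2 libraries. Of 31 kept, 21 were 2-fold lower and 2 higher in NLRP3KO at day 3, and 23 lower and 1 higher in WT at day 3, with medians of -1.66 in NLRP3KO and -2.24 in WT. At day 6, 21 were lower and 2 higher in NLRP3KO, and 24 lower and 1 higher in WT, with medians of -1.97 in NLRP3KO and -1.89 in WT. Genes listed at 0 count as lower in this and the following lists. The shares 2-fold lower among all genes kept were 32.1% in NLRP3KO and 31.3% in WT at day 3, and 52.8% in NLRP3KO and 30% in WT at day 6, and those among genes abundant in naive cells lay between 55.5% and 73.1%. Foxo1 had an FPKM of 48.3 in naive NLRP3KO and 41.8 in naive WT, and between 1.64 and 2.85 in the Th2 libraries. Actn1, an actin crosslinker, had 0.461 in WT at day 3 against 91.0 in naive WT. Cd27, a costimulatory receptor, was listed at 0 in both WT Th2 libraries against 78.7 in naive WT.

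Between the genotypes, 0 of the 31 genes of that list kept in naive cells were 2-fold apart, with a median of -0.04. The largest differences were Foxp1 at -0.82, a factor of quiescence, Socs3 at 0.75, an inhibitor of cytokine signals, Id3 at 0.67 and Bcl2 at -0.57. At day 3, 5 of 20 kept were higher and 2 lower in NLRP3KO, and at day 6, 5 of 23 were higher and 7 lower, against the 52.6% and 74.6% of all genes given above. The listed FPKM of Socs3 was higher in NLRP3KO in both Th2 comparisons. It was 13.1 in NLRP3KO and 3.21 in WT at day 3, and 5.98 in NLRP3KO and 0.688 in WT at day 6. The fragments behind these Socs3 values were not worked out. In NLRP3KO at day 6, 1 Klf2 fragment gave an FPKM of 4.62, so the Socs3 difference there may rest on few fragments.

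Genes of activation and the cell cycle were mostly higher in the Th2 libraries after scaling. As deposited, without scaling, 4 of 16 had a higher FPKM in NLRP3KO at day 3 and 7 in WT, and 4 in NLRP3KO at day 6 and 8 in WT, than in naive cells. Of all genes kept, 10.8% in NLRP3KO and 9.99% in WT at day 3, and 9.87% in NLRP3KO and 10.3% in WT at day 6, were 2-fold higher than in naive cells. Of 16 on that list, 10 were 2-fold higher and 1 lower in NLRP3KO at day 3 than in naive NLRP3KO, and 12 of 15 were higher and 0 lower in WT, with medians of 1.95 in NLRP3KO and 2.17 in WT. At day 6, 9 were higher and 5 lower in NLRP3KO, and 12 higher and 0 lower in WT, with medians of 1.48 in NLRP3KO and 2.24 in WT. Il2ra, the alpha chain of the IL-2 receptor, had an FPKM of 12.3 in naive NLRP3KO and 5.97 in naive WT, of 43.2 in NLRP3KO and 24.0 in WT at day 3, and of 21.6 in NLRP3KO and 23.4 in WT at day 6. Irf4, a factor induced by T cell receptor signals, was 4.14 higher on the log2 scale in NLRP3KO and 4.68 higher in WT at day 3 than in naive cells. Between the genotypes, 0 of 16 were 2-fold apart in naive cells, 1 of 15 was higher and 3 lower in NLRP3KO at day 3, and 0 of 14 were higher and 5 lower in NLRP3KO at day 6, where 20.9% of all genes kept were higher and 53.8% lower.

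Receptors that guide effector cells were mixed. Of 10 of the 12 kept, 2 were higher and 4 lower in NLRP3KO and 3 higher and 5 lower in WT at day 3 than in naive cells, and 2 were higher and 6 lower in NLRP3KO and 3 higher and 4 lower in WT at day 6. Among all genes kept, 10.8% were higher and 32.1% lower in NLRP3KO, and 9.99% higher and 31.3% lower in WT, at day 3, and 9.87% higher and 52.8% lower in NLRP3KO, and 10.3% higher and 30% lower in WT, at day 6. Ccr4, a chemokine receptor of Th2 cells, had an FPKM of 4.78 in NLRP3KO and 5.01 in WT at day 3, and of 5.84 in NLRP3KO and 6.05 in WT at day 6, against 3.08 in naive NLRP3KO and 1.51 in naive WT. S1pr4, a relative of S1pr1, had 0.936 in NLRP3KO at day 3 against 46.2 in naive NLRP3KO. Between the genotypes, 0 of 10 were 2-fold apart in naive cells, against 2.53% of all genes kept. At day 3, 1 of 5 was higher and 1 lower in NLRP3KO, against 25.4% higher and 27.2% lower of all genes kept. At day 6, 0 of 6 were higher and 4 lower in NLRP3KO, against 20.9% higher and 53.8% lower of all genes kept.

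Of 29 partners of the 9 proteins that had a single entry, 23 were kept in naive cells and 0 were 2-fold apart between the genotypes. Of 23 kept in NLRP3KO and 22 in WT, 8 were lower and 3 higher in NLRP3KO and 10 lower and 3 higher in WT at day 3 than in naive cells, and 12 were lower and 4 higher in NLRP3KO and 8 lower and 4 higher in WT at day 6. In NLRP3KO the lower counts were near the shares over all genes kept, 32.1% at day 3 and 52.8% at day 6, and the WT shares over all genes were 31.3% at day 3 and 30% at day 6. Aes, a short corepressor of the family that binds TCF1 and LEF1, had an FPKM of 7.00 in NLRP3KO and 4.13 in WT at day 3, against 239 in naive NLRP3KO and 241 in naive WT. Jak3, the kinase of the common gamma chain, had 11.3 in NLRP3KO and 3.28 in WT at day 3, the largest genotype difference of the list there at 1.47. Set against WT, 1 of 16 partners kept was higher and 0 were lower in NLRP3KO at day 3, and 2 of 19 were higher and 6 lower in NLRP3KO at day 6, against 52.6% of all genes 2-fold apart at day 3 and 74.6% at day 6. Igf1r, a receptor for the ligands that IGFBP4 binds, had 4.58 in naive NLRP3KO and 3.56 in naive WT, while the ligands of the other receptors, Il7 and Ccl19, were listed at 0 in all 6 libraries.

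The genes whose profile over the 6 libraries was most like the mean profile of the 9, among 4823 candidates, were Fam78a, Peli1, Coro1a, B2m and Rps18. Their root mean square distances from it ran from 0.258 to 0.282 on the log2 scale, against a median of 1.12 over the candidates. Of the 9 genes themselves, Klf2 was closest at 0.510 and Ccr7 followed at 0.567, with 70 and 133 candidates closer than each. Igfbp4 and Dapl1 were farthest, at 1.31 and 1.55, so the 9 genes did not share 1 profile on this measure. B2m and Rps18 are expressed by nearly every cell, and the likeness rests on 6 libraries that share 2 preparations.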

How the data were processed

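For every library the authors deposited a table giving, per the file headers, each gene model's FPKM, its lower and upper confidence bounds and a status. TopHat, Cufflinks and mm9 are named in the submitters' processing notes, with the annotation and the software versions not given in the sources used here. Of 23700 entries, 23415 had an OK status in all 6 tables. Members of the gene set and all lists were chosen with earlier results of these data known. Named genes are the 9 members, up to 4 genes per list with the largest differences among those that reached an FPKM of 5 in any library, and the 5 nearest profiles; Foxo1, Il2rg, Igf1r, Il7, Ccl19, Foxp3, Hba-a1, Hba-a2, Cd3e and Cd4, and a few values of named genes in further libraries, were added after their values were seen. The values of 1 gene of the lists are not reported here.

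A count test cannot be used on FPKM, and with 1 library per group there is no p-value. FPKM were multiplied by 0.245 (naive NLRP3KO), 0.328 (naive WT), 1.78 (NLRP3KO day 3), 2.02 (WT day 3), 1.62 (NLRP3KO day 6) and 1.83 (WT day 6), the median ratios over the 1059 genes that reached an FPKM of 1 in all 6 libraries. Log2 differences carry a pseudocount of 1, which understates those of low genes, and use genes that reached an FPKM of 1 in at least 1 of the 2 libraries. FPKM in the text are as deposited.

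Fragments were read from the steps in which the bounds move. All 28 Th2 values of 7 genes lay within 0.0646 of a whole number after a correction of 1.05 to 1.08. Naive fragment numbers are estimates. Intervals are exact (Clopper-Pearson, 95%) and, like the floor of 3 fragments, cover counting error only, since the labels name no molecular identifiers for the PCR-amplified reads. An exact 0 can be a failed estimate, so such genes are called listed at 0. Deposited starts count from 0 and were raised by 1. Transcript lengths (GENCODE vM21) were matched by symbol for 89.5% of entries. The scaling and the log2 differences between the genotypes were run on simulated data with known changes. The comparisons with naive cells, the fragment numbers and the floor were not tested in that way. Python 3.11.15, pandas 2.3.3, numpy 2.4.6 and scipy 1.17.1 were used.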

Additional observations from a re-analysis of the deposited data

How the results depend on the processing

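No paired analysis was possible because each group has 1 library, and for the same reason no library could be left out of a group. Of 81 counts of genes under 9 alternatives (8 planned, 1 added after seeing the data), 64 stayed within 1.5 times the reported count. Between NLRP3KO and WT at day 3 the count was 1 instead of 0 under several alternatives, but not always for the same gene. Without scaling (1.12), with scaling by the pair of libraries (1.09) and by the upper quartile (1.03) it was Igfbp4, higher in NLRP3KO. With scaling by ribosomal protein genes (-1.09) and with a pseudocount of 0.1 (-1.35) it was S1pr1, lower in NLRP3KO. The count was also 1 in the added alternative, with scaling genes chosen without the NLRP3KO day 6 library. Scaling by ribosomal protein genes gave 5 instead of 1 in naive NLRP3KO against naive WT (4 higher, 1 lower), 4 lower instead of 7 in WT at day 3 against naive, and 4 instead of 2 in WT between day 6 and day 3. It also reversed Ccr7 in WT at day 3 against naive, to 0.47. Upper quartile scaling gave 4 lower instead of 7 in NLRP3KO at day 6 against naive. Between day 6 and day 3 in WT the count was 1 instead of 2 without scaling, with scaling by the pair and with an FPKM of at least 5, and 0 where bounds had to be apart. In NLRP3KO it was 1 instead of 3 with an FPKM of at least 5 and 0 with bounds apart. Between NLRP3KO and WT at day 6 it was 2 instead of 6 with bounds apart (Igfbp4, and S1pr1, whose NLRP3KO bounds are listed at 0 and whose fragment interval, 0 to 4.20, includes 1). The cause of these shifts was not tested. Of 486 differences of single genes, 398 moved by at most 0.5 of the range that their deposited bounds allow, 87 moved by more, and 1, Ccr7 above, was at least 2-fold apart and turned its sign. Counting differences of any size, 13 of 81 took the other sign under at least 1 alternative, among them Satb1 and Il7r in naive NLRP3KO against naive WT (up to 0.51 and 0.70) and Satb1 and Igfbp4 in WT at day 3 against naive (up to 1.27 and 1.11). Depth limits all Th2 values, most of all those of NLRP3KO at day 6.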
